A study of Mus musculus with 7 samples.

Results

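Blood clotting and clot removal are carried out by proteins that leukocytes, platelets and endothelial cells partly make themselves, and 9 such genes were followed here in the mouse spleen during endotoxemia. They form a list of names, drawn up with earlier results of these data known, so that counts over them are descriptions: the initiator F3, the protease F10, the crosslinking subunit F13a1, the anticoagulant receptors Thbd and Procr, the plasminogen activation genes Plau, Plaur and Serpinb2, and the matrix glycoprotein Thbs1. All 9 were found among the 17920 genes of the deposited table, and all 9 belonged to the 11378 genes that were tested, those with a mean of at least 1 FPKM (fragments per kilobase, a level corrected for transcript length and library size). Levels are set side by side between genes on this scale only as an approximate guide, since replicates differed with transcript length.

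The 7 libraries came from whole spleen of mice of the C57BL/6 strain, 8 weeks old, that had all received 20 mg/kg lipopolysaccharide (LPS, a bacterial cell wall component) by intraperitoneal injection. Spleens were taken 90 min later from wild-type (n = 2) and GdX-deficient mice (n = 2), and 6 h later from wild-type (n = 2) and GdX-deficient mice (n = 1). GdX is the X-linked ubiquitin-like protein UBL4A. The genotype is given as GdX-/- in the sample labels and as GdX-/Y in the title, and the labels do not describe the allele. They name splenocytes as the source, while the protocol describes a spleen crushed for RNA extraction, so no cell type was isolated. No spleen without LPS was analysed here. According to the series' design text each library is 1 mouse.

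In septic and endotoxemic animals, monocytes, macrophages and endothelium expose tissue factor, the product of F3, which starts thrombin generation through factor VIIa and factor X. Thrombomodulin (Thbd) and the endothelial protein C receptor (Procr) turn thrombin into an activator of the anticoagulant protein C. Clots are dissolved by plasmin, which urokinase (Plau) releases from plasminogen at its receptor (Plaur), and the serpin PAI-2 (Serpinb2) inhibits urokinase.

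The main pattern was one of time. In wild-type spleen all 9 genes had libraries at 6 h that did not overlap those at 90 min, 8 of them lower and 1 higher, which held for 57.9% of all genes tested (27.6% lower, 30.3% higher). Serpinb2, Thbd and Thbs1 fell beyond the test's threshold. In the single GdX-deficient library at 6 h, Serpinb2 and Thbs1 were also far below their 90 min level. F3 was below its 90 min libraries as well, Procr, Plaur and Thbd overlapped theirs, and F10, F13a1 and Plau were above them. Of all genes 56.8% were above and 15.8% below. At 6 h Plau, F13a1 and Thbd each stood, on the deposited scale, at least 2-fold above both wild-type libraries. After quantile normalization none of the 3 reached 2-fold, with log2 differences of 0.85 for Plau, 0.75 for F13a1 and 0.88 for Thbd.

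The sequence just upstream of the transcription start was available for 6 of the 9 genes in the RefSeq promoter table (build GRCm38.p6). Serpinb2 and F13a1 have a second start there, which makes 8 promoters. The AP-1 letters TGANTCA, the site of Fos and Jun dimers, were in promoters of 4 of the 6 genes, or 5 of the 8 promoters. The same letters, on either strand, were present in 7.81% of the 32851 promoters searched. The stretch searched ran past the start, with a match in F3 at 44 downstream of it. Counts and shares of letters are therefore not for the 250 bases printed alone. The promoters of F3, Plaur, Procr and Serpinb2 are shown because F3 and Serpinb2 are among the genes lower at 6 h and because these 4 share the letters. Each line gives the 250 bases before the start, 5′ to 3′ on the plus strand, with TGANTCA in capitals.
F3, chr3:121723287-121723536: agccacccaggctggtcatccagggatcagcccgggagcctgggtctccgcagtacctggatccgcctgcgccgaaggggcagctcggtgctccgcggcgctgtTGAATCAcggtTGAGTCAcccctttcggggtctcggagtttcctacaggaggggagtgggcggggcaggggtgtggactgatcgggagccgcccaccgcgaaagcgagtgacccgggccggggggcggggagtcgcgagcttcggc
Plaur, chr7:24462233-24462482: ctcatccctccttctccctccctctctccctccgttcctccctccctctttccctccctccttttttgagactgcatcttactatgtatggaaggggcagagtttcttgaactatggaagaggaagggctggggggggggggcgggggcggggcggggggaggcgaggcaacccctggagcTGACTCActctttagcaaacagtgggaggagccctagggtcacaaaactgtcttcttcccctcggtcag
Procr, chr2:155750967-155751216: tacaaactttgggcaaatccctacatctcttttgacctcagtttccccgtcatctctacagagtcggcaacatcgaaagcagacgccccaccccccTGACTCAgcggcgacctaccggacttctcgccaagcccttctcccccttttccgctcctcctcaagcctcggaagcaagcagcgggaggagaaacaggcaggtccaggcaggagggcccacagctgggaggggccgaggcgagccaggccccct
Serpinb2, chr1:107511173-107511422: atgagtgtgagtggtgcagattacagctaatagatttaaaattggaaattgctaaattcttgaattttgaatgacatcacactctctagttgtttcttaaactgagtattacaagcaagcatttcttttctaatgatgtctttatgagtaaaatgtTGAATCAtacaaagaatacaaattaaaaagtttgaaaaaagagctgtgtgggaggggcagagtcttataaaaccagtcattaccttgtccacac

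Counted from the first transcribed base in RefSeq, with the base before it as -1, the AP-1 letters begin at -146 and -135 in F3, at -69 in Plaur, at -154 in Procr and at -94 in Serpinb2, or at -181 from the second start of Serpinb2. For Procr the RefSeq start lies inside the gene as GENCODE gives it, so that the last stretch of its printed sequence is within that gene model. Serpinb2 also holds the TATA box letters TATAAA, at -29 from the first start and at -116 from the second. These letters or their complement occur in 3 of the 8 promoters, the other gene being F3 at 44 downstream of the start, and in 13.6% of all promoters. Plaur holds the EGR letters GCGGGGGCG at -109, present in 2.91% of all promoters. The NF-kB letters (GGGNN followed by TTTCC or TTCCC) and the CRE letters TGACGTCA were not in any of the 8, and were found in 3.24% and 1.79% of all promoters. A match of letters is a description and does not show that a factor binds.

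Before the genes are taken in turn, a few properties of the libraries bear on them. Depth was estimated from the steps of low FPKM values at between 19300000 (GdX-deficient, 90 min, replicate 2) and 21000000 fragments (wild type, 6 h, replicate 1). The estimate is rough, as at least 64.2% of the low values in each library came within 0.15 of a whole fragment, and so are the fragment numbers of single genes below. Spleen markers were present in every library, for example Cd79a of B cells at 70.7 to 789 FPKM and Spic of red pulp macrophages at 91.5 to 185 FPKM. Ubl4a, the targeted gene, stood at 4.03 to 10.6 FPKM in GdX-deficient and 5.62 to 14.0 FPKM in wild-type libraries, and Gm44504, an entry that overlaps it, at 0.66 to 1.86 against 14.5 to 51.1 FPKM. Haemoglobin genes took 7.7% to 30.9% of the FPKM sum. Among the GdX-deficient libraries of 90 min, replicate 2 stood apart by its neutrophil markers, with a summed level of 4870 FPKM against 1109 in replicate 1. In bulk tissue, fewer cells of a type and less RNA per cell cannot be told apart.

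**Figure D1:**
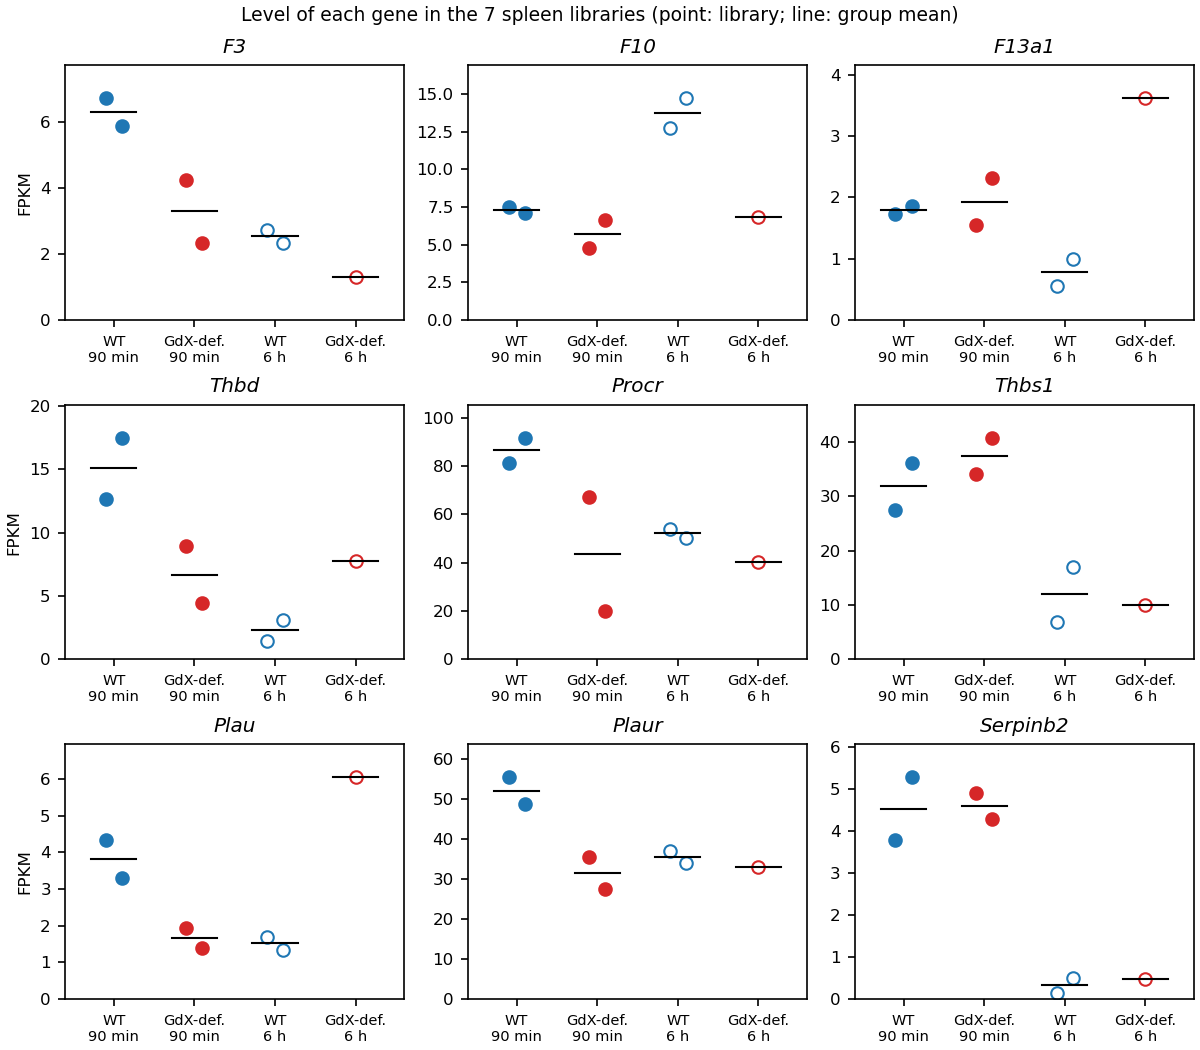
Level in FPKM (linear axis from 0) of the 9 genes in each of the 7 spleen libraries, by genotype and time after LPS; points are libraries (blue wild type, red GdX-deficient, filled 90 min, open 6 h) and lines are group means. Serpinb2 lies at 0.14 to 0.51 FPKM in every 6 h library and at 3.78 to 5.28 FPKM at 90 min, while Plau is highest, at 6.04 FPKM, in the GdX-deficient library of 6 h.

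F3 encodes tissue factor, the membrane receptor that starts coagulation. The gene (Entrez gene 14066) lies on chromosome 3, 121723537 to 121735048, plus strand, in GRCm38, the build of all gene positions given here. At 90 min it stood at 6.72 and 5.90 FPKM in wild type and at 4.25 and 2.34 FPKM in GdX-deficient spleen. By 6 h wild type had 2.74 and 2.33 FPKM, and the GdX-deficient library 1.29 FPKM, about 48 fragments. Both 6 h groups were below both 90 min groups of the same genotype, and the GdX-deficient libraries were below the wild-type ones at each time. Across genotypes F3 fell by 0.98, in units of log2(FPKM + 1), from 90 min to 6 h (SE 0.24, limma adjusted p = 0.0449). This call was narrow: it was kept in 5 of 13 settings, counting the one reported, with adjusted p from 0.0351 to 0.186, and ended without either wild-type library of 90 min, without either of 6 h, without the first GdX-deficient library of 90 min, without the GdX-deficient 6 h library, without a filter on low values (0.110) or without haemoglobin genes in the scaling (0.0643). In wild type alone the difference was -1.05 (SE 0.31, limma adjusted p = 0.0602). It ran from -1.28 to -0.94 over 14 settings, and passed in 3 of them. For genotype it was -0.80 at 90 min (SE 0.31, limma adjusted p = 0.621) and -0.73 with time as a covariate (SE 0.24, limma adjusted p = 0.116). When the first GdX-deficient library of 90 min was left out, the latter became -0.88 and passed (limma adjusted p = 0.0430).

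F10 (Entrez gene 14058, chromosome 8, 13037308 to 13056676, plus strand) encodes factor X, the protease that forms thrombin; the liver is its main source, and macrophages also make it. It was the only gene of the 9 that was higher at 6 h in wild type: 7.54 and 7.10 FPKM in the early libraries against 12.7 and 14.7 FPKM in the late ones. GdX-deficient spleen had 4.78 and 6.63 FPKM, and then 6.84 FPKM. The wild-type difference of 0.82 (SE 0.29) did not pass the threshold (limma adjusted p = 0.104). At both times the GdX-deficient values lay below the wild-type ones, by -0.32 on the log2 scale at 90 min (SE 0.29, limma adjusted p = 0.679) and 2.01-fold in mean FPKM at 6 h, where 1 library was set against 2. Of the liver markers, Alb reached 0.16 FPKM and Apoa1 0.05 FPKM at most, and Serpina1a stood at 0.11 to 0.58 FPKM, highest in the GdX-deficient 6 h library; their part in the F10 values was not tested.

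F13a1 (Entrez gene 74145, chromosome 13, 36867178 to 37050244, minus strand) encodes the catalytic subunit of factor XIII, the transglutaminase that crosslinks fibrin, which monocytes, macrophages and megakaryocytes make. It had the lowest mean level of the 9 genes. Values at 90 min were alike, 1.73 and 1.86 FPKM in wild type and 1.55 and 2.31 FPKM in GdX-deficient spleen. They parted at 6 h, when wild type had 0.56 and 1.00 FPKM and the GdX-deficient library 3.61 FPKM, or about 45 and 78 fragments against 280. The wild-type time difference was -0.66 (SE 0.27, limma adjusted p = 0.141), and at 6 h the GdX-deficient library differed from wild type by 1.38, a ratio of 4.63 between the mean FPKM values.

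Thbd (Entrez gene 21824, chromosome 2, 148404466 to 148408188, minus strand) encodes thrombomodulin, the endothelial and myeloid receptor that redirects thrombin to protein C. Wild-type spleen held 12.7 and 17.5 FPKM early and 1.47 and 3.14 FPKM late. This log2 difference of -2.31 (limma SE 0.39, adjusted p = 0.00961) corresponds to a mean FPKM 6.54-fold lower. GdX-deficient spleen had 8.92 and 4.48 FPKM, and then 7.80 FPKM, so the 6 h library lay between its 90 min libraries. At 90 min the GdX-deficient libraries were below the wild-type ones, with a difference of -1.11 (SE 0.39, limma adjusted p = 0.604). At 6 h the GdX-deficient library was above both wild-type libraries, with a difference of 1.46 from their mean. The fall in wild type passed in 13 of 14 settings, and missed without a filter on low values (limma adjusted p = 0.0582).

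Procr (Entrez gene 19124, chromosome 2, 155751117 to 155755471, plus strand) encodes the endothelial protein C receptor, which presents protein C to thrombomodulin, and had the highest mean level of the 9 genes. It stood at 81.3 and 91.6 FPKM in wild type and at 67.4 and 20.2 FPKM in GdX-deficient spleen at 90 min. The low value belongs to replicate 2, the library with the high neutrophil markers, in which the stromal list also summed to 110 FPKM against 238 FPKM in replicate 1. At 6 h wild type had 53.96 and 50.4 FPKM and the GdX-deficient library 40.5 FPKM. The genotype difference at 90 min was -1.20 (SE 0.46, limma adjusted p = 0.621), and it was -0.35 without the low library and -2.04 (adjusted p = 0.0835) without the other one. With time it differed by -0.72 in wild type (SE 0.46, limma adjusted p = 0.336).

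Plau (Entrez gene 18792, chromosome 14, 20836660 to 20843385, plus strand) encodes urokinase. In wild type it went from 4.34 and 3.29 FPKM at the early time to 1.70 and 1.33 FPKM, and in GdX-deficient spleen from 1.94 and 1.40 FPKM to 6.04 FPKM. The GdX-deficient libraries were thus the lowest at 90 min and the highest at 6 h, without overlap at either time. Neither the wild-type time difference of -0.93 (SE 0.28, limma adjusted p = 0.0620) nor the genotype difference of -0.85 at 90 min (SE 0.28, limma adjusted p = 0.573) passed the threshold. Against the wild-type libraries of 6 h the mean FPKM of the GdX-deficient library was 3.99-fold higher, a log2 difference of 1.49, and it was 3.62-fold above its own genotype at 90 min.

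Plaur (Entrez gene 18793, chromosome 7, 24462484 to 24475968, plus strand) encodes the urokinase receptor, which myeloid and endothelial cells raise on activation. At 90 min it stood at 55.3 and 48.7 FPKM in wild type and 35.4 and 27.4 FPKM in GdX-deficient spleen. All 3 libraries at 6 h were close together, with 36.9 and 33.8 FPKM for wild type and 32.9 FPKM for the GdX-deficient mouse. Its genotype difference at 90 min was -0.72 (SE 0.25, limma adjusted p = 0.603) and its time difference in wild type -0.54 (SE 0.25, limma adjusted p = 0.195). The ligand and its receptor therefore did not keep a fixed ratio: at 6 h the GdX-deficient library had the highest Plau of the 3, with Plaur close to wild type. Its Plaur log2 difference from wild type was -0.10 as deposited and 0.17 without haemoglobin genes in the scaling.

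Serpinb2 (Entrez gene 18788, chromosome 1, 107511423 to 107535478, plus strand) encodes PAI-2, a urokinase inhibitor that macrophages induce strongly with LPS. At 90 min it stood at 3.78 and 5.28 FPKM in wild type and 4.91 and 4.29 FPKM in GdX-deficient spleen, and at 6 h wild type had 0.14 and 0.51 FPKM and the GdX-deficient library 0.48 FPKM. The groups of the 2 times did not overlap, and the genotypes overlapped at each time. Serpinb2 fell by 2.06 (log2) in wild type (SE 0.28, limma adjusted p = 0.00423) and by 2.00 across genotypes (SE 0.23, limma adjusted p = 0.00335). Its mean FPKM was 13.9-fold lower at 6 h in wild type, a ratio that rests on about 6 and 20 fragments in the 6 h libraries. This fall passed in every setting run: 14 of 14 in wild type and 13 of 13 across genotypes. The genotype difference at 90 min was 0.03 (SE 0.28, limma adjusted p = 0.972), with a negative sign after quantile normalization.

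Thbs1 (Entrez gene 21825, chromosome 2, 118111876 to 118127133, plus strand) encodes thrombospondin 1, a matrix glycoprotein that platelets release and macrophages produce. Values at 90 min were 27.5 and 36.1 FPKM in wild type and 34.1 and 40.7 FPKM in GdX-deficient spleen, and at 6 h wild type had 6.94 and 17.1 FPKM and the GdX-deficient library 10.1 FPKM. It fell by 1.58 across genotypes (SE 0.29, limma adjusted p = 0.0180) and by 1.44 in wild type (SE 0.38, limma adjusted p = 0.0446). The second call was the less steady, kept in 6 of 14 settings, and ended without any single library of the 90 min groups (adjusted p 0.0558 to 0.160), without replicate 1 of wild type at 6 h, when the difference was -0.85 (0.110), without a filter (0.126), without haemoglobin genes in the scaling (0.0826) and in a fit of only the 4 wild-type libraries (0.0796). The genotypes overlapped at both times (0.24 at 90 min, SE 0.38, limma adjusted p = 0.815).

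**Figure D2:**
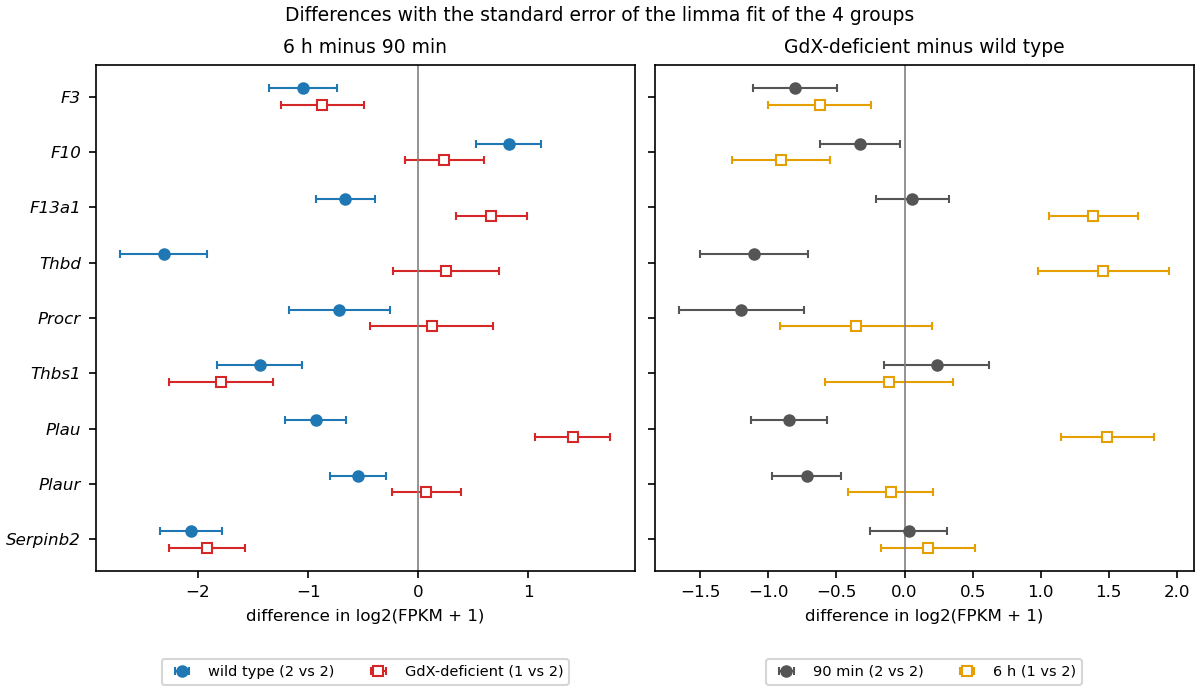
Differences in log2(FPKM + 1) of the 9 genes between 6 h and 90 min in each genotype (left) and between GdX-deficient and wild-type spleen at each time (right); points are limma estimates and bars their standard errors, where the single GdX-deficient library at 6 h is assumed to vary like the groups of 2. Serpinb2, Thbs1 and F3 are to the left of 0 in both genotypes, whereas Plau and F13a1 lie on opposite sides.

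Read as a set, 3 of the 9 genes passed in the time comparison of wild type, all lower (Serpinb2, Thbd and Thbs1), where 10.7% of all genes passed in either direction, 6.32% lower and 4.39% higher. Their median log2 difference was -0.93, beside 0.05 over all genes tested. Across genotypes 3 of 9 passed, again all lower (Serpinb2, Thbs1 and F3), against 5.44% of all genes, 2.65% lower and 2.79% higher. F3, Serpinb2 and Thbs1 were lower at 6 h in both genotypes without overlap, as were 9.6% of all genes. Without haemoglobin genes in the scaling, 191 of the 708 calls in wild type were higher, compared with 499 of 1218 as deposited, and the split across genotypes went from 318 higher of 619 to 112 of 327. Quantile normalization gave 305 higher of 883 across genotypes.

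Markers of several cell types moved with time in wild type as well. Below both 90 min libraries at 6 h were 7 of 8 red pulp macrophage markers, 5 of 8 monocyte markers, 6 of 10 endothelial markers, 7 of 10 platelet and megakaryocyte markers, 8 of 10 stromal markers, 5 of 6 B-cell markers, 6 of 6 red cell precursor markers, 4 of 9 neutrophil markers and all 5 listed T-cell markers, where 27.6% of all genes were. Above both were 3 neutrophil, 2 monocyte, 1 endothelial and 1 stromal marker of these lists, and 30.3% of all genes. The summed level of the red pulp macrophage list went from 633 to 694 FPKM at 90 min to 290 to 306 FPKM at 6 h, and that of the monocyte list from 1334 to 1476 to 578 to 738 FPKM. All 5 genes of a list named for tissue handling, which include Fos, Jun and Egr1, were also lower, with a sum of 173 to 245 against 46.1 to 80.1 FPKM. Whether handling or LPS set their level was not tested. The part of all these markers in the falls of Serpinb2, Thbd and Thbs1 was not tested either. In the GdX-deficient library at 6 h the same lists summed to 568 FPKM (red pulp macrophage), 1282 FPKM (monocyte) and 52.4 FPKM (tissue handling). Single markers differed from these sums: Cd163 stood there at 0.26 against 2.35 and 2.49 FPKM at 90 min, Vcam1 at 55.6 against 149 and 119 FPKM and Cd14 at 118 against 290 and 207 FPKM. Of the 8 red pulp macrophage markers 4 were above and 3 below both GdX-deficient libraries of 90 min, where 56.8% of all genes were above and 15.8% below.

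**Figure D3:**
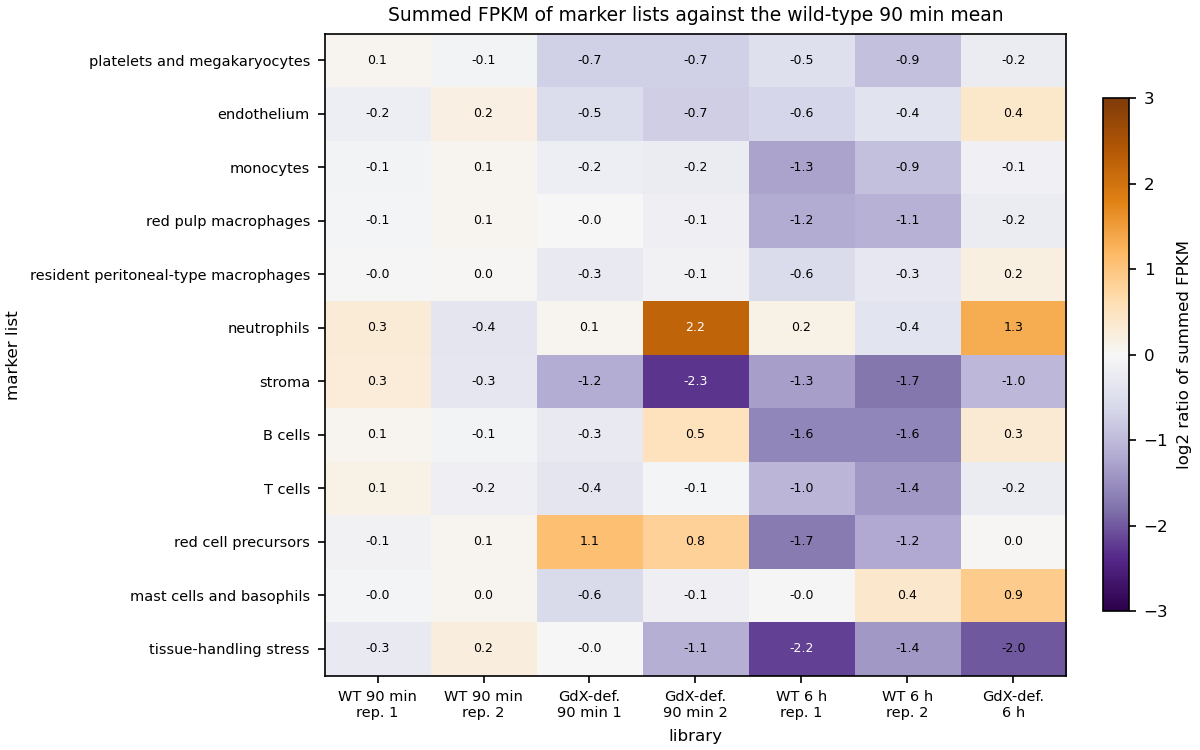
Log2 ratio of the summed FPKM of each marker list in each library to the mean of the wild-type 90 min libraries; the numbers in the cells are those ratios. Neutrophil markers are at 2.23 in the second GdX-deficient library of 90 min, and the red pulp macrophage list is at -1.19 and -1.12 in wild type at 6 h but at -0.22 in the GdX-deficient library.

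The genotypes were compared at 90 min with 2 libraries on each side. None of the 9 genes passed the limma threshold, as did only 0.0176% of all genes, and 5 of 9 (F3, Thbd, Procr, Plau and Plaur) had an unadjusted p under 0.05, where 7.58% of all genes had one. Their unadjusted p ranged from 0.0130 for Plau to 0.0280 for F3, and all 5 were lower in both GdX-deficient libraries. With F10, 6 of 9 were lower without overlap, which 23.4% of all genes were (24.1% were higher and 47.5% either). F13a1, Serpinb2 and Thbs1 overlapped. The 9 genes had a median log2 difference of -0.72, beside 0.07 over all genes. Stromal markers were lower without overlap in 10 of 10 cases, summing to 110 to 238 against 421 to 646 FPKM, endothelial markers in 6 of 10 (79.9 to 92.5 against 117 to 149 FPKM) and platelet markers in 5 of 10 (130 to 132 against 205 to 226 FPKM). Monocyte markers were so in 3 of 8 and red pulp macrophage markers in 2 of 8 cases, and neutrophil markers in 0 of 9, with 3 of 9 higher. Red cell precursor markers were so in 0 of 6, with 6 of 6 higher (1001 to 1210 against 532 to 607 FPKM). Their part in the lower values was not tested. No setting that was run, including each library left out in turn, brought any of the 9 past the threshold in this comparison.

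Over both times, the 3 GdX-deficient libraries were compared with the 4 of wild type in a model with time as a covariate. None of the 9 passed with limma, compared with 0.0439% of all genes, and 3 of 9 (F3, Procr and F10) had an unadjusted p under 0.05, as did 27.0% of all genes. F3, F10, Procr and Plaur were lower in the GdX-deficient libraries at both times without overlap, 4 of 9, compared with 13% of all genes. With the scaling that left out haemoglobin genes, the 6 h difference was -0.44 for F3, -0.66 for F10, -0.08 for Procr and 0.17 for Plaur. The model averages the times, and for Thbd (-0.08) and Plau (0.09) it averaged differences of opposite sign. The median of all genes was 0.16 in this comparison, and it was -0.01 after quantile normalization and 0.36 when the scaling left out haemoglobin genes.

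At 6 h the single GdX-deficient library was described against the wild-type pair. Plau, Thbd and F13a1, 3 of 9, were at least 2-fold higher and outside both wild-type libraries, which 16.5% of all genes were, and none was at least 2-fold lower, as 5.47% of all genes were (22.0% in either direction). Fold is here on the log2(FPKM + 1) scale. This count changed with the scaling: the median of all genes was 0.32 in this comparison as deposited and -0.02 after quantile normalization, when none of the 9 was counted as higher and F3 (-1.14) and F10 (-1.31) were counted as lower. On the deposited scale F3, F10, Procr and Plaur lay below both wild-type libraries by less than 2-fold. Plaur was higher (0.17) without haemoglobin genes in the scaling. In all, 7 of 9 did not overlap wild type, 3 higher and 4 lower, where 80.3% of all genes did not, 54.9% higher and 25.3% lower, so the absence of overlap with 1 library says little. Thbd and Plau were lower at 90 min and higher at 6 h without overlap, 2 of 9, as were 6.82% of all genes. A fit that assumes the lone library varies like the groups of 2, added after the data were seen, called 3.96% of all genes (2.91% higher, 1.05% lower) and 1 of the 9: Plau (log2 difference 1.49, SE 0.34, limma adjusted p = 0.0464). F13a1 (limma adjusted p = 0.0502) and Thbd (0.0976) did not pass in it. F13a1 passed without any single library of the 90 min groups (0.0382 to 0.0467) or without the second wild-type library of 6 h (0.00785), and Thbd without the latter (0.00783). The Plau call ended with a pseudocount of 0.1, without a filter, after quantile normalization (0.85, limma adjusted p = 0.176) and without haemoglobin genes in the scaling. After quantile normalization the fit called F10 instead, as lower (-1.31, SE 0.25, limma adjusted p = 0.0490), where it had -0.91 (SE 0.36, limma adjusted p = 0.141) on the deposited scale. Marker lists were higher in this library too, above both wild-type libraries for 8 of 10 endothelial, 8 of 10 platelet, 8 of 10 stromal, 7 of 8 red pulp macrophage, 5 of 8 monocyte, 6 of 9 neutrophil and 5 of 6 B-cell markers, where 54.9% of all genes were above both. The endothelial list summed to 177 FPKM against 84.8 to 99.6 FPKM in wild type, and the red pulp macrophage list to 568 against 290 to 306 FPKM. Their part in the higher Plau, Thbd and F13a1 was not tested.

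Time in GdX-deficient spleen likewise rests on 1 library at 6 h, which also enters the comparison above. By the same rule of size 3 of 9 were counted: Serpinb2 (log2 difference -1.92) and Thbs1 (-1.79) lower, against 1.64% of all genes, and Plau (1.41) higher, against 4.09% (5.73% in either direction). Without overlap 3 of 9 were higher (Plau, F13a1 and F10) and 3 lower (F3, Serpinb2 and Thbs1), against 56.8% and 15.8% of all genes, 72.6% in all. The mean FPKM of Serpinb2 was 9.58-fold and that of Thbs1 3.72-fold lower at 6 h. In the added fit with a shared spread limma called 0 of the 11378 genes (0.0%), while 910 had an unadjusted p under 0.05. Its adjusted p was 0.0919 for Serpinb2, 0.198 for Plau and 0.240 for Thbs1. Without either wild-type library of 6 h, which enters only the shared spread, all 3 passed: Serpinb2 at 0.00361 and 0.00347, Thbs1 at 0.00432 and 0.00441 and Plau at 0.0441 and 0.0467. Serpinb2 also passed without either wild-type library of 90 min (0.0249 and 0.0224).

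The difference between the genotypes in their change with time was tested in the same added fit. None of the 9 genes passed, as did 0.0703% of all genes, and 3 of 9 (Plau, Thbd and F13a1) had an unadjusted p under 0.05, where 9.98% of all genes had one. The change with time was more positive in GdX-deficient spleen by 2.57 for Thbd (SE 0.62, limma adjusted p = 0.168), 2.34 for Plau (SE 0.44, limma adjusted p = 0.107) and 1.33 for F13a1 (SE 0.42, limma adjusted p = 0.295). Plau passed without replicate 1 (limma adjusted p = 0.0141) or replicate 2 (0.0241) of wild type at 6 h, and Thbd without replicate 2 (0.00713). Plau and F13a1 were lower in wild type and higher in GdX-deficient spleen at 6 h without overlap, 2 of 9, as were 8.31% of all genes.

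The other genes of the pathway were taken from a list of 51, of which 47 were in the table and 28 reached a mean of 1 FPKM. Of the 13 listed clotting factors and genes of the von Willebrand axis, 11 stayed under that mean, among them F7, the partner of tissue factor, at 0.03 to 0.57 FPKM, and F5, the cofactor of factor X, at 0.19 to 1.72 FPKM. Platelet receptors (7 of 7), thrombin receptors (4 of 4) and genes of vitamin K use and factor secretion (4 of 4) were all above it. In wild type 3 of the 28 fell from 90 min to 6 h and none rose, close to the background of 10.7% of all genes called (6.32% lower). Their median log2 difference was -0.47 beside 0.05 over all genes.

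The 3 genes were S100a10, Tfpi2 and Vkorc1. S100a10, which with annexin A2 forms a plasminogen receptor, went from 246 and 172 FPKM to 62.2 and 45.3 FPKM in wild type, a difference of -1.93 (SE 0.30, limma adjusted p = 0.00650). It stood at 127, 175 and, at 6 h, 110 FPKM in GdX-deficient spleen. Tfpi2, a serine protease inhibitor of the matrix, stood at 5.99 and 7.20 FPKM and then 0.92 and 1.22 FPKM in wild type, a difference of -1.87 (SE 0.30, limma adjusted p = 0.00734), and at 3.77, 2.09 and, at 6 h, 0.87 FPKM in GdX-deficient spleen. Across genotypes Tfpi2 fell by 1.54 (SE 0.27, limma adjusted p = 0.0146) and S100a10 by 1.33 (SE 0.32, limma adjusted p = 0.0411), 2 of the 28, where 5.44% of all genes were called and 2.65% were lower. Without a filter on low values both calls ended (adjusted p 0.0724 for Tfpi2 and 0.112 for S100a10). The S100a10 call across genotypes ended without either wild-type library of 90 min, either of 6 h or replicate 2 of the GdX-deficient 90 min group (adjusted p 0.0660 to 0.131). Vkorc1, which recycles vitamin K, fell by 1.47 in wild type (SE 0.30, limma adjusted p = 0.0181), from 26.6 and 18.3 FPKM to 8.42 and 6.36 FPKM, had 13.8 FPKM in the GdX-deficient 6 h library, and lost the call without replicate 1 of wild type at 90 min (limma adjusted p = 0.189) or without the filter (0.0547). Like Serpinb2, Tfpi2 was low in every library at 6 h, and S100a10, like Thbd, was higher in the GdX-deficient mouse than in both wild-type mice at that time.

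Plat, tissue plasminogen activator, stood at 2.20 and 1.28 against 0.87 and 0.27 FPKM at 90 min (-0.81, SE 0.29, limma adjusted p = 0.604). Tfpi, the inhibitor of the tissue factor complex, stood at 19.1 and 22.8 against 15.5 and 12.1 FPKM (-0.57, SE 0.27, limma adjusted p = 0.621), and Vwf, the platelet-tethering protein of endothelium and megakaryocytes, at 1.48 and 2.74 against 1.85 and 1.71 FPKM. None of the 28 passed in either genotype comparison with limma, where 0.0176% of all genes passed at 90 min and 0.0439% over both times, and 6 of 28 had an unadjusted p under 0.05 at 90 min, as did 7.58% of all genes. At that time 23 of the 28 had a lower log2 level in GdX-deficient spleen, as did 43.5% of all genes.

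**Figure D4:**
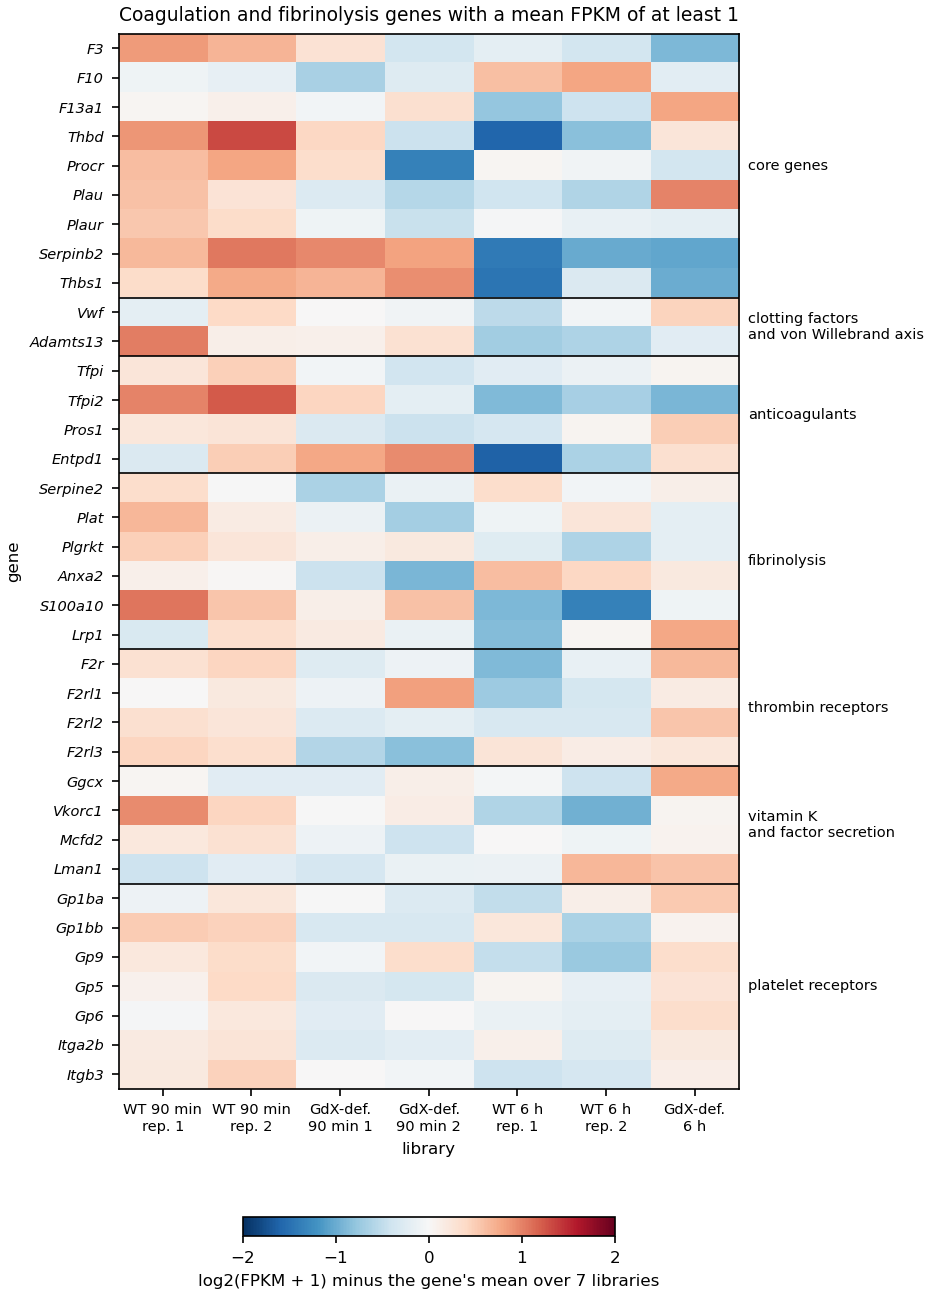
Level of the 9 genes (top block) and of other pathway genes with a mean of at least 1 FPKM, as log2(FPKM + 1) minus the mean of each gene over the 7 libraries (red above, blue below), with roles at the right. In wild type at 6 h Thbd, Serpinb2, Thbs1, Entpd1 and S100a10 are among the bluer rows.

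Among themselves the 9 genes formed no single profile. Over the 7 libraries, which share depth but mix genotype and time, Pearson's r of log2(FPKM + 1) was 0.948 for Serpinb2 with Thbs1, 0.869 for Procr with Plaur and 0.837 for F3 with Plaur. It was 0.026 for Plau with Serpinb2, its inhibitor, and -0.743 for F10 with Serpinb2. Among the tested genes nearest in profile were, for F3, the chemokine Ccl2 (r = 0.994) and, for Thbs1, Ccrl2 (0.989). For Serpinb2 they were Elovl6 (0.992) and the macrophage receptors Mrc1 (0.991) and Cd163 (0.990). For Thbd they included Olfml3 (0.993) and Cd44 (0.989). Those nearest to F10, F13a1, Procr, Plau and Plaur are not named. Ccl2 ran from 442 and 316 FPKM in wild type at 90 min to 31.7 FPKM in the GdX-deficient 6 h library, and Cd163 from 2.32 to 3.16 FPKM at 90 min to 0.22 to 0.26 FPKM at 6 h. Between 7 genes (for Plaur) and 128 genes (for F13a1) of the 11378 reached r of at least 0.95, and the values are given as a description only.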

How the data were processed

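The instrument was a BGISEQ-500, per the labels' protocols, and whole spleen RNA was read. The authors deposited 1 table of FPKM values with 1 column per library. HISAT, HISAT2 2.0.4, Bowtie2, RSEM and the build GRCm38.p5 are named, without roles, per the submitters' processing notes, and filters are not given in the sources used here. No column was left unmapped.

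Each value was put on the log2(FPKM + 1) scale. Tests covered the 11378 genes whose mean reached 1 FPKM and used limma 3.58.1 under R 4.3.3 (empirical Bayes with a trend, two-sided, Benjamini-Hochberg over all genes tested, threshold 0.05). This scale understates the change of low genes. Genotype at 90 min and time in wild type came from 1 fit of the 4 groups, and genotype and time across all 7 libraries from additive models. Comparisons with the single GdX-deficient library at 6 h were planned without a test. There a gene counted if its log2(FPKM + 1) difference was 2-fold or more and its value fell outside the pair. Depth was estimated from the steps of low FPKM values of genes with 1 listed transcript, with 50 bases taken off its length, the value among 6 tried that gave the clearest steps. The code was tested on simulated data.

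The members and lists were chosen with earlier results of these data known. Named genes are all members, Plat, Tfpi, Vwf, F5 and F7, and up to 5 genes of the pathway list past the threshold in each direction. Of the 3 genes most like each member in Pearson's r, only some are named, for F3, Serpinb2, Thbs1 and Thbd. Marker genes, Ubl4a and Gm44504 were named outside this rule. Lists of mast cell and resident macrophage markers were also summed: at 6 h the GdX-deficient library held 7.31 and 54.4 FPKM against 3.77 to 5.10 and 32.5 to 38.2 FPKM in wild type. Red cell precursor markers summed to 1001 to 1210 FPKM in GdX-deficient and 532 to 607 FPKM in wild-type spleen at 90 min. The values of 1 gene of the pathway list are not reported here, though counts over the list include it. Positions of genes are from GENCODE (GRCm38). Alternatives were another pseudocount (0.1), no filter, quantile normalization, scaling without haemoglobin genes, the replicate number as a block, fits of fewer libraries and each library left out. Fits that give the single library the spread of the other groups were added after seeing the data.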

Additional observations from a re-analysis of the deposited data

Results flagged for a closer look

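The 4 results below stood out because libraries of the groups compared did not overlap and lay on opposite sides: at the 2 times for the genotype differences of Plau and Thbd, and in the 2 genotypes for the changes with time of Plau and F13a1. The count of libraries is small, with 1 on the GdX-deficient side at 6 h, and the test of the difference, added after the data were seen, did not pass for any of them.

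The change of Plau with time went down in wild type, from 3.82 to 1.52 mean FPKM, and up in GdX-deficient spleen, from 1.67 to 6.04 FPKM, a difference between the changes of 2.34 on the log2 scale (limma adjusted p = 0.107). Seen as a genotype difference, the same value of 2.34 separates a lower Plau level at 90 min from a higher one at 6 h. For F13a1 the change with time differed by 1.33 (limma adjusted p = 0.295), from 1.80 to 0.78 mean FPKM in wild type and from 1.93 to 3.61 FPKM in GdX-deficient spleen. For Thbd the genotype difference was -1.11 at 90 min and 1.46 at 6 h, which differ by 2.57 (limma adjusted p = 0.168).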

How the results depend on the processing

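With 1 or 2 mice a group, counts of genes past the threshold moved widely. Among the values recomputed for the 9 genes in the planned comparisons that were tested, 406 kept their direction and side of the threshold, 28 changed sign, 18 lost and 7 gained a call. Serpinb2 kept its fall under every setting.

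Genotype at 90 min gave 2 genes, 181 from the 4 libraries alone and 2 to 183 with a library left out. Time in wild type gave 1218 genes, 635 without a filter, 708 without haemoglobin genes in the scaling and 450 to 1774 with a library left out. Of the 9 genes 3 were called, and 1 without a filter. Genotype with time as covariate gave 5 genes, and 2 to 1674 with a library left out (0 to 1 of the 9). Time with genotype as covariate gave 619 genes, 104 without a filter, 327 without haemoglobin genes and 154 to 1204 with a library left out, and 3 of the 9, 1 without a filter. The added fit of genotype at 6 h gave 450 genes, 90 without a filter, 270 after quantile normalization, 255 without haemoglobin genes and 627 to 3035 with a library left out; of the 9 it called 1, then 0 with a pseudocount of 0.1, 0 without a filter, 0 without haemoglobin genes, 1 after quantile normalization (F10, lower, in place of Plau, higher), and 1 to 3 with a library left out. The rule of size at 6 h counted 3 of the 9 as higher (Plau, Thbd and F13a1), but 2 as lower and none as higher after quantile normalization. The calls of the 6 h fit split into 331 higher and 119 lower, 166 and 104 after quantile normalization, and 216 and 39 without haemoglobin genes. Time in GdX-deficient spleen gave 0 genes, 22 without a filter and 0 to 236 with a library left out (0 to 3 of the 9). The interaction gave 8 genes, 0 with a pseudocount of 0.1, 3 without a filter, 4 after quantile normalization, 0 without haemoglobin genes and 0 to 238 with a library left out (0 to 2 of the 9). The cause of these shifts was not tested.

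Labels number the replicates without saying that a number joins mice. The gene-wise differences of replicate 1 from 2 correlated at -0.12 (wild type with GdX-deficient, 90 min), 0.768 (wild type, both times) and 0.08. With the replicate block, time in wild type gave 2345 genes and 6 of the 9 (F3, adjusted p 0.0203, Plau, 0.0210, and F10, 0.0430, joined the 3), genotype with time as covariate 12 genes, Plau -0.024 for genotype and -0.11 for time. Crossed numbers, added later, gave 2 genes for genotype at 90 min.

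Signs changed as follows in the tested comparisons, all for differences that did not pass. For genotype at 90 min, quantile normalization gave F13a1 -0.071 and Serpinb2 -0.14, and with a library left out F13a1 ran from -0.13 to 0.24, Serpinb2 from -0.17 to 0.23 and Vwf from -0.43 to 0.16. For genotype with time as covariate, Thbd was 0.11 without haemoglobin genes, and quantile normalization gave Plau -0.26, Serpinb2 -0.15 and Thbs1 -0.044. With a library left out Thbd ran from -1.11 to 0.39, Plau from -0.85 to 0.40 and Thbs1 from -0.078 to 0.32. For time with genotype as covariate, Plau was -0.040 with a pseudocount of 0.1, -0.031 after quantile normalization and -0.035 without haemoglobin genes, and with a library left out ran from -0.93 to 0.32, and F13a1 from -0.66 to 0.092. Comparisons with the single GdX-deficient library of 6 h changed sign too. For genotype at 6 h, scaling without haemoglobin genes gave Plaur 0.17 and Thbs1 0.13, and quantile normalization gave Serpinb2 -0.15. With a wild-type library of 6 h left out Thbs1 reached 0.48 and Serpinb2 -0.03. For time in GdX-deficient spleen, quantile normalization gave Plaur -0.11, Thbd -0.07 and F10 -0.06. Without replicate 2 of 90 min Procr was -0.72, Plaur -0.10 and Thbd -0.17.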

Other observations

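All 28 other pathway genes that were tested had a change with time that was more positive in GdX-deficient than in wild-type spleen, while 35.8% of all genes had a more negative one, with a median difference of 0.85 beside 0.19 over all genes. After quantile normalization 27 of the 28 had that sign. The test of this difference passed for none of the 28, and the GdX-deficient change rests on 1 library at 6 h. Some marker lists moved the same way: at 6 h 7 of 10 platelet markers were below both 90 min libraries in wild type and 9 of 10 above both in GdX-deficient spleen, and the counts were 6 below and 8 above for the 10 endothelial and 8 below and 9 above for the 10 stromal markers, where 27.6% of all genes were below in wild type and 56.8% above in GdX-deficient spleen. For other lists the GdX-deficient counts were mixed or lower: above and below both 90 min libraries were 3 and 3 of 8 monocyte, 1 and 3 of 9 neutrophil, 2 and 2 of 6 B-cell, 1 and 1 of 5 T-cell and 0 and 6 of 6 red cell precursor markers. Of the 28 genes, 5 are themselves on the platelet list and 1 on the endothelial list. Their part in the result was not tested. Among them, picked after their values were seen, the thrombin receptor F2r stood at 8.87 and 9.76 FPKM and then 3.34 and 6.22 FPKM in wild type, and at 5.70 and 6.49 FPKM and then 11.6 FPKM in GdX-deficient spleen. The protein C cofactor Pros1 stood at 6.77 and 6.91 FPKM and then 4.26 and 5.83 FPKM in wild type, and at 4.43 and 3.93 FPKM and then 8.29 FPKM in GdX-deficient spleen.

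The wild-type replicates differed with transcript length. Across 11180 genes, which are not independent, Spearman's rho of length with the log2 difference of replicate 2 from replicate 1 was 0.581 at 6 h and 0.434 at 90 min, and 0.169 in GdX-deficient spleen at 90 min. Thbs1, F13a1 and Thbd have the longest transcripts of the 9 genes, at 5848, 3952 and 3723 bases, and in wild type at 6 h replicate 2 stood 2.46, 1.79 and 2.14 times as high as replicate 1. For F3, F10, Procr, Plau and Plaur, of 1506 to 2503 bases, this ratio lay between 0.78 and 1.16, and for Serpinb2, at about 6 and 20 fragments, it was 3.64. The difference of genotype at 6 h had a rho of 0.320 with length, with a median log2 difference of 0.54 for the 4267 genes of at least 3500 bases and 0.03 for the 4488 under 2500 bases. The time difference in wild type had a rho of -0.083. Its part in the higher Thbd and F13a1 of the GdX-deficient library was not tested.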
